A study of Mus musculus and Homo sapiens with 4 samples.

Results

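The replication-dependent and linker histone genes were followed on 4 Affymetrix 3' arrays, 1 for each of 4 cell lines made by stable retroviral infection. Members were the probe sets whose platform symbols all began with a histone gene prefix (H1-, H2AC, H2BC, H3C, H4C or the older HIST1H, HIST2H and HIST4H). This rule found 19 of 45037 non-control probe sets on the mouse array, naming 30 of 19324 gene symbols, and 78 of 54613 on the human array, naming 69 of 21355. LM8, from a mouse osteosarcoma, and A375M, from a human melanoma, each carried either the pSIREN-RetroQ control vector or pSIREN-RetroQ with a hairpin against Merm1/Wbscr22 of that species. Merm1/Wbscr22, now Bud23 in mouse and BUD23 in human, encodes a methyltransferase of 18S ribosomal RNA. Both lines were grown with 10% FBS, and the sources used here do not say whether an infected line was a pool or 1 clone. Each group held 1 array, so no value below has a replicate, an SD between cultures or a p-value, and 1 array a group sets the precision.

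Histones package DNA into nucleosomes, in which pairs of H2A, H2B, H3 and H4 form the core and H1 binds the linker DNA. The replication-dependent genes lie in clusters, are transcribed together in S phase, and give mRNAs that end in a stem-loop and not in a poly(A) tail. Some of them also give polyadenylated transcripts, and the linker and variant genes outside the clusters mostly give polyadenylated mRNA. The standard 3' labelling protocol of these arrays primes at poly(A), so stem-loop transcripts are expected to be under-represented. This is background, and the form of the transcripts was not measured here.

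Values are log2 RMA expression values as deposited, and each difference is knock-down minus control within a line. The target gene was lower in both knock-down arrays, at 10.61 in the control and 8.48 in the knock-down array of LM8, and at 10.70 and 8.38 on its bright probe set in A375M. In the control arrays osteoblast genes such as Sp7 (11.11) and Col1a2 (14.63) were bright in LM8, and SOX10 (11.62) and S100B (10.68) in A375M. The pigment cell genes MLANA (4.84), PMEL (5.42), TYR (6.04) and TYRP1 (6.01) read lower there. Some markers were bright in the other line too. LM8 read 10.37 for Pax3 and 8.28 for S100b, and A375M 12.89 for SPARC and 10.67 for COL1A2. Of the osteoblast markers 8 of 8 in LM8 and 6 of 10 in A375M lay above the median level. Of the melanocyte and neural crest markers 5 of 12 and 11 of 11 did, and of the leukocyte markers 3 of 6 and 1 of 5. That level, the median over all non-control probe sets of the mean of the array pair, was 5.28 in LM8 and 4.66 in A375M. Some features of the human table touch every human value below. Of all human probe sets 45.4% were identical in both arrays, and the control value of 67.4% recurred in another probe set, against 0.706% and 13.1% of mouse probe sets. Among the histone probe sets 30 of 78 were identical and 59 of 78 had a recurring control value in A375M, against 0 and 1 of 19 in LM8.

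Most histone probe sets were dim. In A375M 25 of 78 lay above the median level, made up of 3 for H1, 6 for H2A, 9 for H2B, 2 for H3 and 5 for H4. In LM8 7 of 19 did, 3 for H2A, 1 for H2B and 3 for H3. No mouse probe set of an H1 or H4 gene met the rule. The mouse platform names linker histones H1f, and its 5 probe sets for H4 genes also list the symbol H4f16, while 2 for H2B genes also list H4bc24, and neither symbol begins with a prefix of the rule. These are described below as probe sets outside the rule. Family sizes over all members were 14, 16, 20, 10 and 16 probe sets for H1, H2A, H2B, H3 and H4 in A375M, with 2 more that named genes of both H3 and H2A. In LM8 they were 4 for H2A, 7 for H2B and 8 for H3. Near-identical copies share probes, and 10 of the 19 mouse and 20 of the 78 human probe sets named several genes, up to 12 and 14. A value is therefore that of a probe set and often not of 1 gene.

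In A375M small positive differences prevailed among the histone probe sets with signal. Over all 78 members 33 were higher in the knock-down array, 15 lower and 30 identical, with a median of 0, where 26.0% of all probe sets were higher, 28.6% lower and the median was also 0. Among the 25 above the median level 17 were higher, 2 lower and 6 identical, with a median of 0.050. Of all probe sets above that level 26.3% were higher and 40.2% lower, and their median was 0. No member reached a 2-fold difference, which 0.0513% of all probe sets did upwards and 0.0128% downwards. At 1.2-fold, a log2 difference of 0.26, 5 members were higher and 0 lower, against 3.52% and 4.08% of all probe sets, and 4 of these 5 lay below the median level.

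The split by direction depends on how the arrays are scaled. With each array centred on its own median, identical values became differences of -0.030 and the 25 brighter members split into 13 higher and 12 lower, where 21.2% of all brighter probe sets were higher. Repeated quantile normalization gave 20 higher and 4 lower against 52.3% higher over all, and removal of a loess curve gave 21 and 4 against 50.4%. Among the 20 brighter members whose control value recurred in other probe sets 14 were higher and 0 lower, where 19.7% of all such probe sets were higher. Among the 5 with a control value of their own 3 were higher and 2 lower, where 34.3% were higher. The part of the recurring values in the pattern was not tested. The SD of the differences between brighter probe sets of 1 gene, a technical gauge, had a median of 0.070 and a 90th percentile of 0.19 in A375M. It covers probe sets within a pair of arrays and not the spread between cultures. Of the 25 brighter members 11 were higher by more than the first and 4 by more than the second, where 15.2% and 5.37% of all brighter probe sets were.

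**Figure D1:**
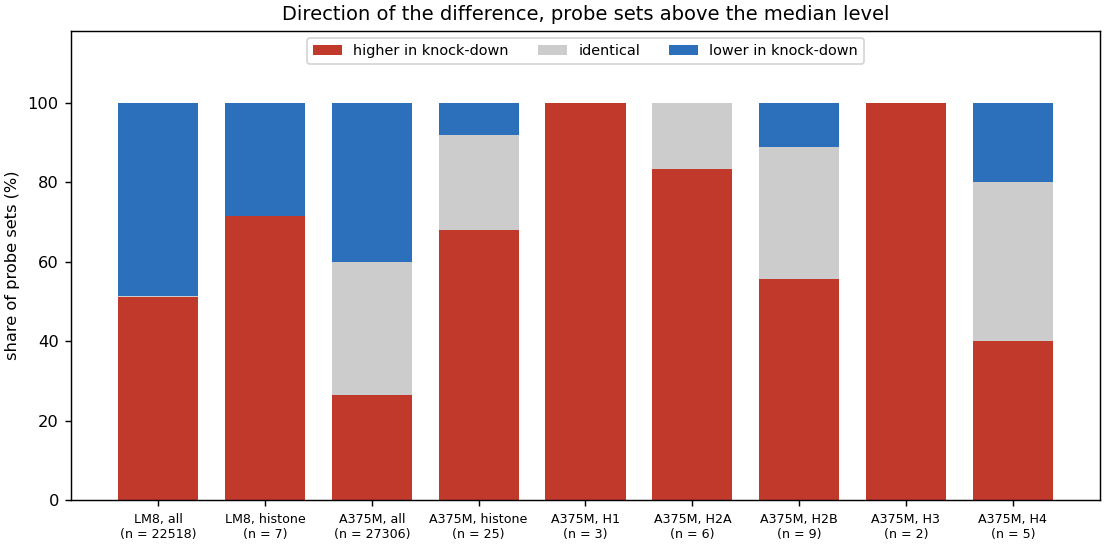
Share of probe sets above the median level (y axis, percent) that were higher, identical or lower in the knock-down array, for all probe sets and for histone members in both lines, and by histone family in A375M. Of the 25 human histone probe sets 68% were higher, against 26.3% of all human probe sets at that level, while in LM8 5 of 7 were higher against 51.0%.

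In LM8 the members went both ways. Of 19 probe sets 10 were higher and 9 lower, with a median of 0.0023, where 50.5% of all probe sets were higher, 48.8% lower and the median was 0.0028. At 1.2-fold 2 were higher and 2 lower, against 10.6% and 10.9% of all probe sets, and none reached 2-fold, against 0.0822% and 0.167%. Of the 7 above the median level 5 were higher and 2 lower, with a median of 0.091, where 51.0% of all such probe sets were higher and 48.7% lower. That split was the same 5 and 2 under every scaling tried. The gauge had a median of 0.11 and a 90th percentile of 0.27 in LM8, and only 1 brighter member, a H2ac19 probe set, was higher by more than the latter, where 8.28% of all brighter probe sets were. The 24 probe sets for labelling spike-ins, bacterial transcripts that are no part of the cells, were higher with the hairpin by a median of 0.14 in LM8, and by 0.026 in A375M. The 14 for hybridisation spike-ins differed by medians of -0.0079 and 0.062. The part of these shifts in the results was not tested.

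**Figure D2:**
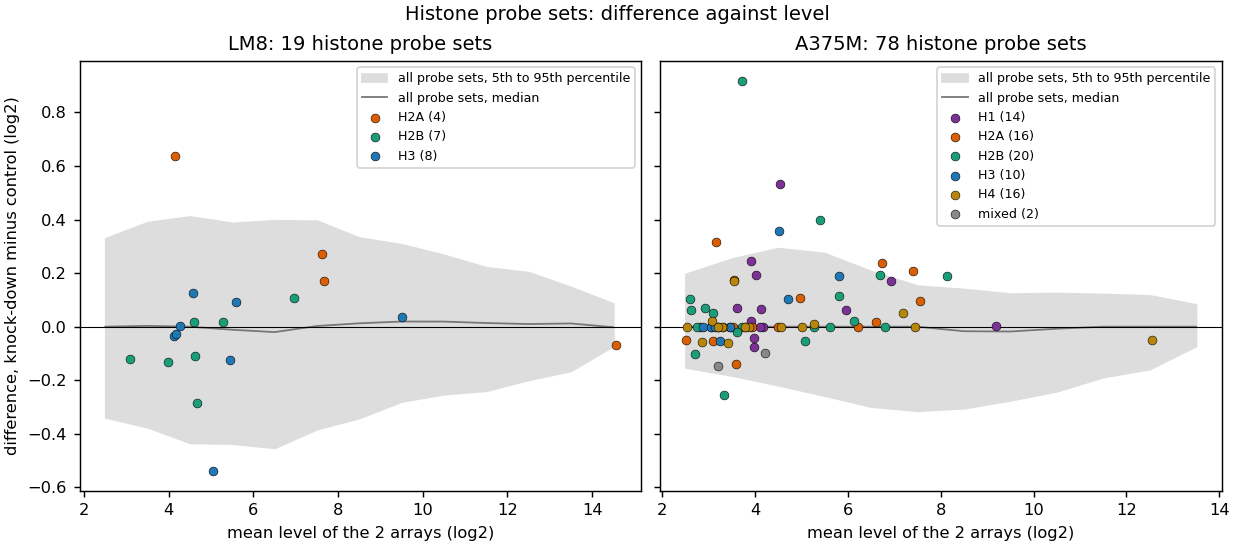
Difference, knock-down minus control (y axis, log2), against the mean level of the array pair (x axis, log2) for each histone probe set, coloured by family, with the 5th to 95th percentile of all probe sets per unit of level in grey. Most members lie at the dim end in both lines, and the widest differences, 0.92 in A375M and 0.64 in LM8, belong to dim probe sets.

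Linker histones bind where DNA enters and leaves the nucleosome. In A375M H1-2, a replication-dependent linker histone gene with known polyadenylated transcripts, read 6.85 in the control and 7.02 after knock-down, a difference of 0.17. H1-10, a variant made outside S phase, read 9.18 in both arrays, a difference of 0.0035, and centring turned its sign. The pseudogene H1-9P read 5.93 and 5.99. The other linker probe sets were dim. Of the probe sets for H1-7, a testis-specific linker histone gene, 1 read 4.27 and 4.80, a difference of 0.53, and the others differed by 0.064 and 0.19. H1-3 read 3.78 and 4.03, while H1-1, H1-4 and H1-5 differed by -0.074, -0.042 and 0.021. Of all human probe sets 26.0% were higher and 28.6% lower. Over the 14 H1 probe sets 9 were higher, 2 lower and 3 identical, with a median of 0.042. One of the identical ones belongs to the antisense RNA H1-10-AS1, which the symbol rule admits although it encodes no histone.

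H2A held the widest difference of any brighter probe set that names 1 gene, in both lines. In A375M H2AC6 read 6.62 and 6.86, a difference of 0.24. The H2AC18 and H2AC19 genes, near-identical copies that share their probe sets, read 7.31 and 7.51 on 1 probe set, a difference of 0.21. Their other probe sets differed by 0.018 and, on a dim one, by -0.14, so the probe sets of this gene pair disagree. H2AC25 read 7.51 and 7.60, and a second, dim probe set of it was identical in both arrays. A probe set shared by 6 genes, H2AC11 and H2AC12 among them, read 4.92 and 5.02, and H2AC14 was identical at 6.22. Of the 6 brighter H2A probe sets 5 were therefore higher and 1 identical, with a median of 0.10. Over all 16 the counts were 7 higher, 3 lower and 6 identical with a median of 0. Of all human probe sets 26.0% were higher, and of the brighter ones 26.3%. With centring H2AC14 and the H2AC18 and H2AC19 probe set at 0.018 turned negative.

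In LM8 the same gene pair led the members. H2ac19 read 7.47 and 7.75 on 1 probe set, a difference of 0.27, and 7.57 and 7.74 on another, a difference of 0.17. A further probe set, named for H2ac19 and H2ac18 together, read 3.83 and 4.47, a difference of 0.64 at a dim level, which was 0.23 with 32 added to the linear values. All 3 probe sets of this pair were higher in the knock-down array, although they can measure the same transcripts and do not count as replicates. The remaining H2A probe set is shared by 10 genes of the large cluster, H2ac4, H2ac6 and H2ac8 among them. It read 14.59 in the control and 14.53 after knock-down, a difference of -0.067, where the highest value of the control array was 14.89, so it lies near the top of the measured range.

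**Figure D3:**
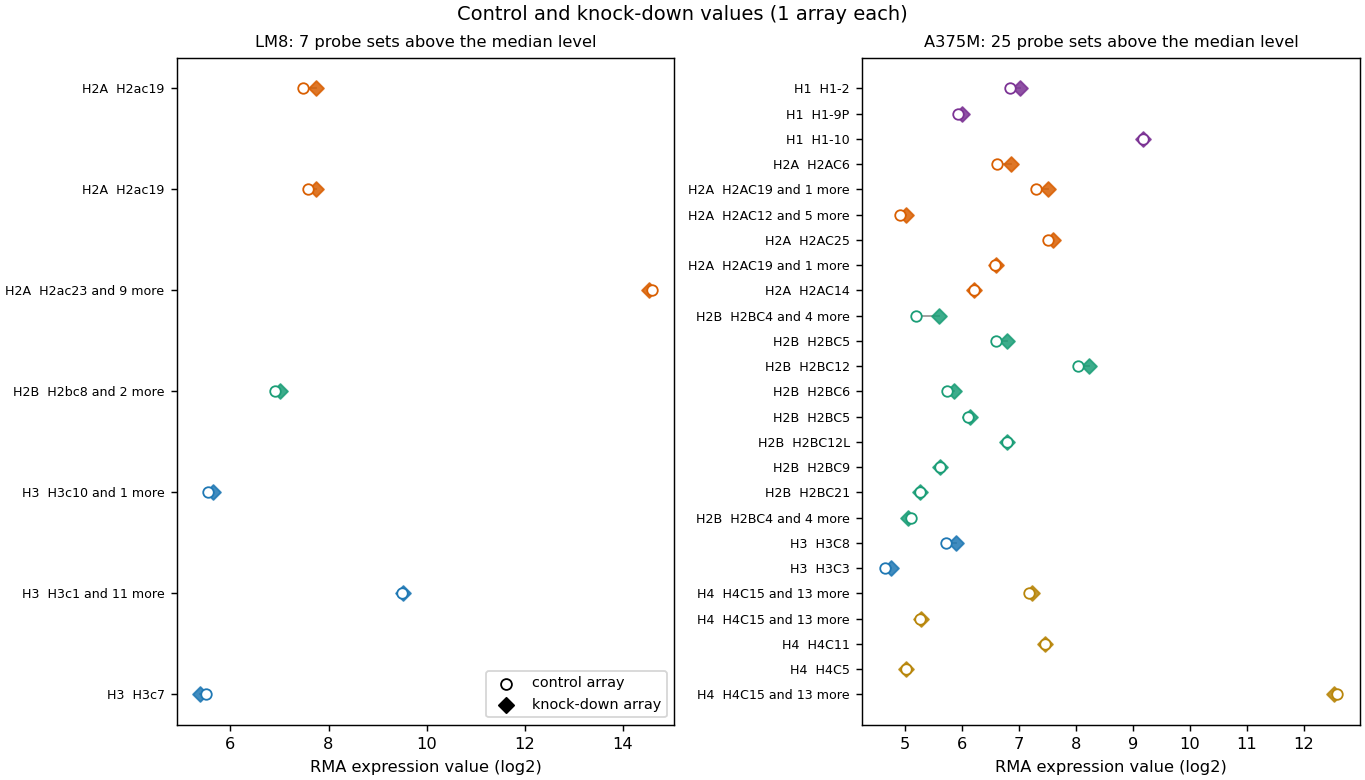
RMA expression values (x axis, log2) of each histone probe set above the median level, with the control array as an open circle and the knock-down array as a diamond, ordered by family and difference. The widest gap among the human probe sets is that of an H2B probe set shared by 5 genes (5.19 and 5.59), and among the mouse ones that of H2ac19 (7.47 and 7.75).

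The promoters of the mouse members are shown to make plain how alike H2ac18 and H2ac19 are and how the elements of histone promoters lie in members of each mouse family. RefSeq promoter windows of build GRCm38.p6, from 250 bases before to 50 after the annotated start, were matched by gene ID for 26 of the 30 mouse genes, 20 on chromosome 13 and 6 on chromosome 3. The 250 bases before the start are printed for H2ac18 (chr3:96245247-96245496, plus strand), H2ac19 (chr3:96240375-96240624, minus strand), H2bc18 (chr3:96269450-96269699, plus strand), H3c4 (chr13:23575513-23575762, plus strand) and H2bc8 (chr13:23571150-23571399, plus strand). H2bc18 and H3c4 had the lowest differences of their families, and H2bc8 is named by the H2B probe set above the median level. Capitals mark the TATA box searched as TATAAA, the CCAAT box searched with the letters of its name, and the octamer searched as ATTTGCAT. Each was searched on both strands, and no match of one overlapped a match of another in these sequences.
H2ac18: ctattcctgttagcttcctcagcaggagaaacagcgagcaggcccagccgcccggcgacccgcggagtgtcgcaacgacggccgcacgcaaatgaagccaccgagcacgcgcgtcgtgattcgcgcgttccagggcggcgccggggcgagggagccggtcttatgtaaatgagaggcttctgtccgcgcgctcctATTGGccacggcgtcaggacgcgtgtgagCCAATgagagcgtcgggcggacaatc
H2ac19: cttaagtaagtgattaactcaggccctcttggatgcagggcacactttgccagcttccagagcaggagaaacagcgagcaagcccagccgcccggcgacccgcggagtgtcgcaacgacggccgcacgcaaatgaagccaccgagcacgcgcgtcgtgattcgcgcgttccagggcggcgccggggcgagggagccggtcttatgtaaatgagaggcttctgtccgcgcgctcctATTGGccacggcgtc
H2bc18: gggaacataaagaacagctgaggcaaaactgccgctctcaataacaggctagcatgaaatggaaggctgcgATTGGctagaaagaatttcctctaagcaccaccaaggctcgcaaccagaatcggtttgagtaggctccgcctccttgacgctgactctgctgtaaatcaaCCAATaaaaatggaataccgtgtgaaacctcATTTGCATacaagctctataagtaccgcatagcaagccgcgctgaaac
H3c4: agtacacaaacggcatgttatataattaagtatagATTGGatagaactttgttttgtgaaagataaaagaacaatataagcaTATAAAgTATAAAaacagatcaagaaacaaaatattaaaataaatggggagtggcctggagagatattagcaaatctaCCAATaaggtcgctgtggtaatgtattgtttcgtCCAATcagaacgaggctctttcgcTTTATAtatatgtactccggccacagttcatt
H2bc8: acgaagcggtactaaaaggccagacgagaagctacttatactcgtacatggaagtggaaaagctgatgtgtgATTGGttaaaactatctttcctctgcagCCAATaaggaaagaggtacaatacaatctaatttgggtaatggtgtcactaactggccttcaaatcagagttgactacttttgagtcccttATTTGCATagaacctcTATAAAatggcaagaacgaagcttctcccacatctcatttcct

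The windows of H2ac18 and H2ac19 share a run of 219 identical bases, offset by 40 because the annotated starts differ. This run reaches the end of the H2ac19 window, so its full length was not measured. No other pair of these 5 shared a run over 9. A TATAAA begins 11 bases after the annotated start of H2ac18, and none appears in the window of H2ac19. With the offset of 40 the matching stretch of H2ac19 lies past the end of its window. Its absence there is therefore no difference between these genes. With 1 gene in 2 windows there were 27 member windows. CCAAT was present in all 27 and in 37.4% of all 32851 windows. TATAAA was present in 13 of 27 and in 13.6% of all. The octamer, an element known from H2B promoters, was present in 3 of 5 H2B windows, 4 of 12 H2A windows, 0 of 10 H3 windows and 1.74% of all. H2A and H2B genes often stand head to head, and the windows of H2bc8 and H2ac8 overlap by 279 bases and those of H2bc22 and H2ac22 by 261, so some of these windows are 1 stretch read on both strands. Both H2bc8 and H2bc18 carry the octamer, at 59 and 48 bases before the start. The probe set of H2bc18 was lower, and the 3 members that name H2bc8, each shared by 3 genes, disagreed with one another. A brighter probe set outside the rule, which names H2bc8 among 11 genes, was higher by 0.081. A match is a description of the letters and says nothing on binding.

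H2B, the partner of H2A, gave the widest human spread. H2BC12, which has known polyadenylated transcripts, read 8.03 and 8.22 in A375M, a difference of 0.19. H2BC5 read 6.59 and 6.79 on 1 probe set, also a difference of 0.19, and 6.11 and 6.13 on another, whose difference of 0.021 turned negative with centring. A probe set shared by H2BC4, H2BC6, H2BC7, H2BC8 and H2BC10 read 5.19 and 5.59, a difference of 0.40. A second probe set of these 5 genes read 5.11 and 5.05 and a dim one differed by 0.062, so the gene group has no settled direction. H2BC6 on a probe set of its own differed by 0.11, and H2BC9, H2BC12L and H2BC21 were identical in both arrays at 5.62, 6.80 and 5.27. The widest difference of all histone members was that of a dim probe set for H2BC8 and H2BC11, which read 3.25 and 4.17, a difference of 0.92 or 1.89-fold. The other probe set of this pair differed by -0.019, and the first differed by 0.27 with 32 added to the linear values. The lowest human difference was -0.25 for H2BC13, at 3.46 and 3.20, where the control value was 1 shared by 613 probe sets.

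In LM8 the H2B probe sets were mostly dim. Of these 4 of 7 were lower, with a median of -0.11, where 48.8% of all probe sets were lower. H2bc18 read 4.81 and 4.52, a difference of -0.28, and both H2bc21 probe sets were lower, by -0.13 and -0.11, at control values of 4.05 and 4.67. The probe set above the median level, shared by H2bc4, H2bc6 and H2bc8, read 6.91 and 7.02, a difference of 0.11. Other probe sets for the same genes differed by 0.018 and -0.12 at dim levels. The negative family median thus came from dim probe sets, and above the median level the single H2B value was positive. Of the 2 mouse H2B probe sets outside the rule, both higher, 1 that names 11 genes read 9.61 and 9.69, a difference of 0.081, and a dim one read 3.39 and 3.73.

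H3 carries the tail residues whose methylation and acetylation mark chromatin states. In A375M H3C8 read 5.71 and 5.90, a difference of 0.19, and H3C3 read 4.65 and 4.75, just above the median level. H3C6 read 4.34 and 4.70 on 1 dim probe set, a difference of 0.36, and was identical in both arrays on another. Of the remaining human H3 probe sets, all dim, 5 were identical and 1 differed by -0.054. The 2 probe sets that name H3 genes together with H2AC7, also dim, read 3.28 and 3.13, and 4.27 and 4.17. In LM8 a probe set shared by 12 H3 genes read 9.49 and 9.53, a difference of 0.035. Another probe set for the same 12 genes read 4.18 and 4.15. H3c7 read 5.50 and 5.38, and a probe set for H3c2 and H3c10 read 5.55 and 5.64. The lowest histone value of LM8 was that of H3c4, at 5.31 and 4.77, a difference of -0.54 or 1.45-fold lower. Probe sets that name H3c4 together with other H3 genes differed by -0.035 to 0.035, so the lower value rests on 1 probe set.

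H4 differed little in A375M. It is among the most conserved proteins known, and 5 human probe sets each name the same 14 H4 genes. The brightest human member of all read 12.59 in the control and 12.54 after knock-down, a difference of -0.048. Another of these probe sets read 7.17 and 7.22, the third with signal read 5.27 and 5.28, and the dim ones differed by 0 and -0.061. H4C11 and H4C5 were identical in both arrays at 7.46 and 5.01. Over 16 H4 probe sets 4 were higher, 3 lower and 9 identical, from -0.061 to 0.17, with a median of 0. These counts were near the background, since of all human probe sets 26.0% were higher, 28.6% lower and 45.4% identical. Of the 5 mouse H4 probe sets outside the rule, which all name the same 13 genes, 1 was higher and 4 lower. The brightest read 9.02 and 9.07, a difference of 0.044, and the other above the median level read 6.04 and 5.77, a difference of -0.27. The 3 dim ones differed by -0.012, -0.083 and -0.17, so probe sets of this gene group disagree in direction.

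Of the 25 brighter members of A375M the 17 that name 1 gene split into 11 higher, 0 lower and 6 identical, and the 8 that name several genes into 6 higher and 2 lower. The ending _x_at or _s_at of a probe set name marks probes that match several transcripts, but the ending and the number of named genes are not the same split, since 2 of the 8 without an ending name several genes. In A375M 17 of the 25 brighter members carried such a name, of which 11 were higher, 1 lower and 5 identical. Among the 8 without it, 6 were higher, 1 lower and 1 identical, with H2BC12 (0.19), H1-2 (0.17), H3C3 (0.10), H2AC25 (0.097), H1-9P (0.064) and a shared H4 probe set (0.010) the higher ones. Of all brighter probe sets 24.6% with and 27.5% without such a name were higher.

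Histone genes outside the rule served as a comparison within the same arrays, from a list of variants and of linker histones under other symbols, with 1 probe set per gene. In LM8 12 of 19 were higher and 7 lower, with a median of 0.040, where 53.4% of all genes were higher, 46.0% lower and the median was 0.016. H2az1 and H2az2, which encode the variant H2A.Z, read 12.99 and 13.04 and 11.78 and 11.89. H2ax, whose product marks DNA breaks when phosphorylated, differed by 0.076. The linker gene H1f2, the mouse counterpart of H1-2, differed by 0.082, -0.049 and -0.14 on its 3 probe sets, and H1f10 by -0.036. H3f3a and H3f3b, which encode the replacement histone H3.3, differed by -0.42 and -0.40 on probe sets of their own with control values of 6.63 and 6.36. The 5 bright probe sets that name both genes, at 12.56 to 13.68, differed by -0.037 to 0.15, so the lower values were not shared by them. In A375M 4 of 10 genes were higher, 1 lower and 5 identical, with H3-3A at 0.13, MACROH2A1 at 0.077 and H2AZ1 at 0.069, where 28.7% of all genes were higher and 31.9% lower.

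Genes that make and mature histone mRNA mostly differed little. SLBP, which binds the stem-loop, read 11.71 and 11.76 in LM8 and 9.55 and 9.68 in A375M, differences of 0.050 and 0.13. NPAT, the coactivator of histone genes at the G1/S transition, differed by -0.056 and -0.071. ERI1, an exonuclease of the histone mRNA end, differed by 0.30 in LM8 and -0.18 in A375M, the highest and the lowest of the list. Over the 20 genes 15 were higher and 5 lower in LM8, with a median of 0.029, and 8 were higher, 7 lower and 5 identical in A375M, with a median of 0. Of all genes 53.4% were higher in LM8, and 28.7% were higher and 31.9% lower in A375M. LSM10, a subunit of the U7 snRNP that processes histone mRNA, differed by -0.050 and 0.11.

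Histone chaperones, which carry histones to DNA, were bright in A375M, and all 27 genes lay above the median level. Of these 7 were higher, 16 lower and 4 identical, with a median of -0.037 that became 0 without _x_at and _s_at probe sets, and CHAF1B of the chromatin assembly factor (-0.25), NAP1L4 (-0.24) and ATRX (-0.24) were the lowest. None reached 1.2-fold, where 3.77% of all genes were at least 1.2-fold higher and 3.77% lower. With shares this low, the lack of such a gene among 27 does not set the list apart. At levels of 6 to 8, 4 of 8 chaperone genes were lower, against 43.0% of all probe sets. At 8 to 10 it was 7 of 11 against 55.2%, and over 10 it was 3 of 6 against 49.4%, so these counts were near the background at like levels. The 2 dimmer chaperone genes were both lower. In LM8 11 of 24 were higher and 13 lower, with a median of -0.0060, and Chaf1b was at 0.15. There 10 of 17 chaperone genes over level 10 were lower, against 44.9% of all probe sets. At 8 to 10 it was 2 of 6 against 46.0%, and the 1 gene at 6 to 8 was lower, against 51.5%. S-phase genes, the replication machinery that is transcribed when the clustered histone genes are, had a median of 0.048 in LM8, with 22 of 35 higher and 13 lower, where 53.4% of all genes were higher. In A375M their median was 0, with 8 higher, 12 lower and 15 identical, and CDC45 was lowest at -0.25. There 28.7% of all genes were higher and 31.9% lower. In the same arrays 17 of 25 brighter histone probe sets were higher, against 26.3% of all brighter probe sets. That count is of probe sets filtered by level, while the S-phase count takes 1 probe set per gene, so they are unlike. The difference between these sets was not tested.

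**Figure D4:**
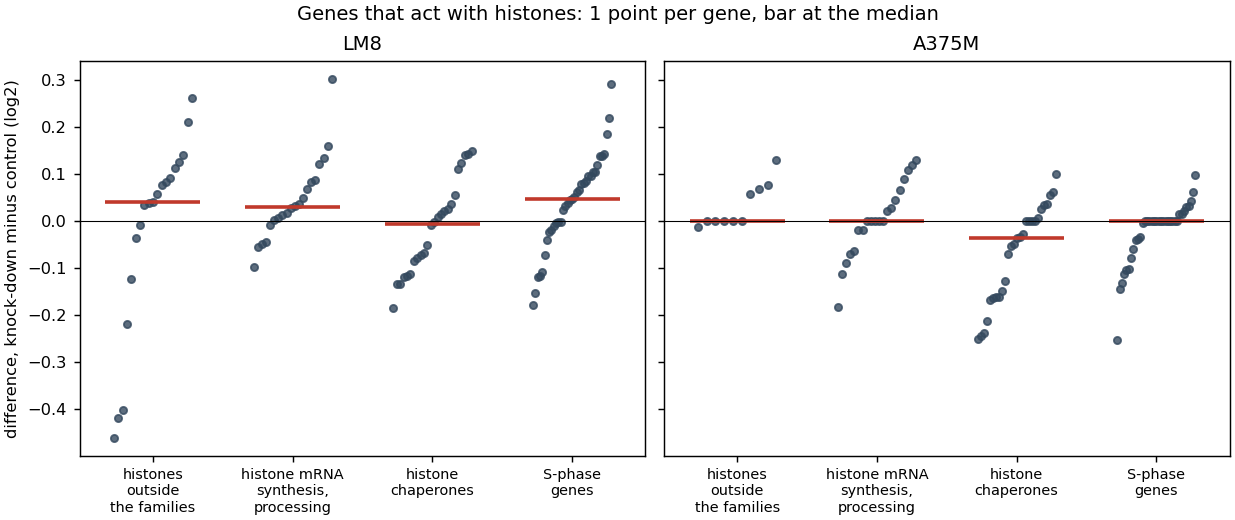
Difference, knock-down minus control (y axis, log2), for each gene of 4 lists (x axis) in LM8 and A375M, with a bar at the list median. In A375M the chaperone and the S-phase genes both reach down to -0.25, and the list medians are -0.037 for the chaperones and 0 for the others.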

How the data were processed

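Biotinylated cRNA from total RNA was hybridised to Affymetrix 3' arrays, as the labels describe. Per the submitters' processing notes the authors used RMA (no version named), and the deposited values are on the log2 scale, 1 per probe set. RMA is meant to equalise the arrays' distributions, which would hide a shift of all transcripts. The deposited A375M arrays were not fully equal, with medians of 4.64 in the control and 4.67 in the knock-down array. Repeated quantile normalization moved the share of brighter probe sets that were higher from 26.3% to 52.3% in A375M. In LM8 it went from 51.0% to 50.9%. The sources used here do not name the step behind the recurring values. Groups came from the sample titles and gene names from the platform annotation. Members and lists were chosen with earlier results of these data known. Values were handled with pandas 2.3.3 and numpy 2.4.6. With 1 array per group no test was made. The main fold threshold was 1.2, and 1.5 and 2 were tried too. For a listed gene the brightest probe set naming that gene alone was used. Other alternatives were filters at the 50th and 70th percentile, centring, repeated quantile normalization, loess (span 0.4, statsmodels 0.14.6), 32 added to linear values, averaging over a gene's probe sets, and leaving out _x_at and _s_at probe sets. Named members were the target, the 8 highest and 8 lowest above the median level, the brightest of each family, those at least 1.5-fold different and all probe sets of their genes. H2AC6, H2BC5, H2BC12 and H1-2 were named whatever their values, as were SLBP and NPAT, and from each list the 3 highest and 3 lowest genes were eligible. Other members and list genes are named to account for each family or list and were chosen after their values were seen. The counting was tested on simulated data.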

Additional observations from a re-analysis of the deposited data

Results flagged for a closer look

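The median difference of the H2B probe sets lay on opposite sides of 0 in the 2 lines, at -0.11 over 7 probe sets in LM8 and 0.010 over 20 in A375M. The difference between the lines was not tested. In LM8 the value came from probe sets below the median level, and in A375M centring moved the family median to -0.020, the same side as in LM8.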

How the results depend on the processing

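Of 152 comparisons of a median or count with an alternative setting, 122 stayed close to the reported value, meaning within 0.05 for a median and within 1.5 times for a count, 29 moved and 1 reversed. Restricting the members to probe sets above the median level gave a median difference over all histone probe sets of 0.091 in LM8 and 0.050 in A375M, and above the 70th percentile 0.10 and 0.074. Those filters left 1 and 1 probe set at least 1.2-fold higher in LM8, 0 and 0 lower, and 1 and 0 higher in A375M. Of all probe sets above the median level 8.91% were at least 1.2-fold higher and 9.67% lower in LM8, and 2.95% were higher in A375M. By family they gave 0.17 and 0.17 for H2A in LM8, 0.10 and 0.15 for H2A in A375M, 0.19 for H2B above the 70th percentile in A375M and 0.15 for H3 above the median in A375M. The reversal was H2B in LM8, from -0.11 to 0.11 above the median level, where 1 probe set was left. No H2B or H3 value was obtained where a filter left no probe set. With 32 added to the linear values 0 probe sets were higher and 1 lower in LM8 and 1 was higher in A375M, and the LM8 H2B median was -0.025. At 1.5-fold 1 was higher and 0 lower in LM8, against 1.04% and 1.38% of all probe sets. In A375M 1 was higher at 1.5-fold, against 0.269% of all probe sets. At 2-fold these counts were 0, 0 and 0. Without _x_at and _s_at probe sets the LM8 H2A median was 0.27. Centring put 1 human probe set at least 1.2-fold lower. For the counts with 32 added, with centring and above the 70th percentile no share over all probe sets was at hand. Those counts cannot be read against a background. Repeated quantile normalization moved the median of histone mRNA synthesis and processing genes in A375M to 0.050. The cause was not tested, other than that a filter leaves fewer probe sets. Of 179 comparisons for single probe sets 175 stayed within the spread between probe sets of a gene and 4 moved. No paired analysis was possible because the labels give no replicate numbers and each group has 1 array. Signal limits the dim members most, since a difference near background is imprecise.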
